A study of Mus musculus with 12 samples.

Results

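The CYP3A enzymes of the mouse intestine and Nr1i2, the gene of the pregnane X receptor, were followed from fresh crypts into cultured epithelial monolayers. CYP3A proteins are heme-containing monooxygenases of the endoplasmic reticulum that oxidize steroids, bile acids and many oral drugs, and in the gut they are found mainly in absorptive enterocytes. The pregnane X receptor is a nuclear receptor that binds xenobiotics and bile acids, pairs with a retinoid X receptor, and activates Cyp3a genes together with transporters and conjugating enzymes. The comparison asks how the Cyp3a genes and their receptor differ between the small and the large intestine, and what becomes of that difference in culture.

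The 8 genes are those of the count tables whose Ensembl identifier maps to Cyp3a11, Cyp3a13, Cyp3a16, Cyp3a25, Cyp3a41a, Cyp3a44, Cyp3a59 or Nr1i2, out of 55487 genes in all. A Cyp3a symbol was carried by 11 genes, 9 of them protein coding and 2 pseudogenes, so 4 (Cyp3a57, Cyp3a41b, Cyp3a61-ps1 and Cyp3a63-ps) lie outside the chosen genes. Total RNA was sequenced from 12 libraries of C57BL/6 mice, 3 in each of 4 groups: crypts of the small intestine (SIcrypt), crypts of the large intestine (LIcrypt), and monolayers grown from such crypts in control medium for 24 h (SI24h and LI24h). The mice were young adults of either sex, and no allele or drug is named for these groups. For the monolayers, the study's methods have small intestinal epithelium released from the jejunum with EDTA alone, whereas the large intestine was also digested with collagenase, dispase and DNase. Isolation and region therefore cannot be told apart. Each crypt library stands for a mouse and each monolayer library for pooled wells. The methods take both regions for the monolayers from the same mice, so the regions may share mice; which libraries do is not given, and the fits treat all libraries as independent. The number of mice behind the wells is not given in the sources used here. The fits estimate the spread of a gene over all groups together. All p-values, those between crypts included, may therefore partly measure technical spread. Total counts per library ran from 59016196 to 76216530.

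The labelled regions were checked against marker genes, as sums of the authors' normalized counts, which are gene counts divided by a size factor for each library. The 12 enterocyte markers summed to 1788330, 1661974 and 1139854 in the SI crypt libraries and to 102641, 99892 and 77205 in the LI crypt libraries, with none of the 12 at 0 in either group. Paneth cell markers, 6 genes of a cell type that belongs to the small intestine, summed to 824986 ± 633123 in SI crypts, whose libraries ran from 324062 to 1536589. In LI crypts they summed to 44290 ± 19750 (SD, n = 3 each), most of it from Ang4, at a mean of 40104. The 6 colonocyte markers summed to 315898 ± 90431 in LI crypts and 77254 ± 8263 in SI crypts (SD, n = 3 each), and 4 of them were called higher in LI crypts, Car4 and Ceacam20 not. In monolayers that list no longer sets the regions apart by its sum, 45607 ± 1076 in LI and 43403 ± 1552 in SI: 3 of its genes were called higher in LI monolayers, and Guca2a was higher in SI monolayers by a log2 fold change of 1.90. In culture the enterocyte sum was 466467 ± 7956 in SI monolayers and 83883 ± 3921 in LI monolayers (SD, n = 3 each). Bulk RNA cannot tell fewer cells of a type from less RNA per cell, and this holds for each gene below.

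The small intestine carried nearly all of the Cyp3a RNA apart from that of Cyp3a13, and culture left Cyp3a11 high there while Cyp3a25 fell. Nr1i2 had much the same level in crypts of both regions and was lower in both kinds of monolayer. A gene was called when edgeR's quasi-likelihood test gave a Benjamini-Hochberg adjusted p under 0.05 over the 19581 genes tested and the log2 fold change was at least 1 in size. Of the 8 genes, 7 passed the filter on low counts, and Cyp3a41a did not. Cyp3a16, Cyp3a44 and Cyp3a59 passed it through the small intestine only and so had to differ between the regions. Within the small intestine, Cyp3a59 passed it only because of the crypts and Cyp3a16 only because of the monolayers, which favours a difference with culture in that direction, so no test of it is given for them.

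Read against all genes, the calls were as follows, leaving out in each comparison the genes whose result the filter fixed or favoured and those without a readable count. Between SI monolayers and SI crypts 2 of 5 genes were called, both lower in culture (Cyp3a25 and Cyp3a44), where 26.1% of all tested genes were called, 9.71% as higher and 16.4% as lower. In the large intestine and between the regions 4 genes can be read, Cyp3a11, Cyp3a13, Cyp3a25 and Nr1i2. Between LI monolayers and LI crypts 1 of these 4 was called, Nr1i2, as lower, against 38.0% of all genes, 14.5% higher and 23.5% lower. Between SI and LI crypts 3 of the 4, the Cyp3a genes, were called, all higher in the small intestine, against 22.7% of all genes, 11.6% higher and 11.1% lower. Between SI and LI monolayers the same 3 were called, all higher in the small intestine, against 21.2%, 12.4% higher and 8.88% lower. By adjusted p alone 59.6, 68.7, 53.9 and 51.8% of all genes passed in the 4 comparisons in this order. The comparisons share groups of libraries, so they are not independent of each other.

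**Figure D1:**
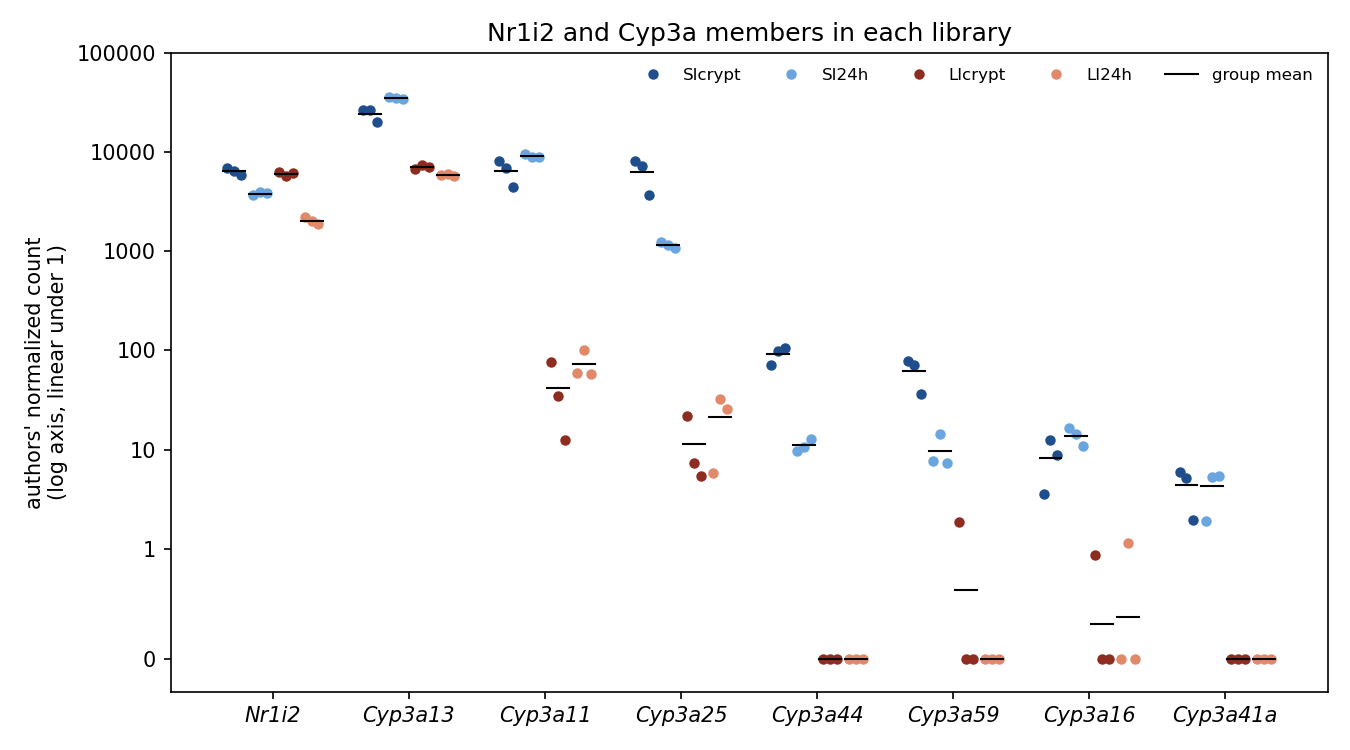
Authors' normalized counts of the 8 genes in each of the 12 libraries, on a log axis that is linear under 1. Each point is a library and each bar the mean of 3. For Nr1i2 the crypt points of both regions overlap, whereas Cyp3a11 and Cyp3a25 lie above 1000 in every SI library and at 102 or less in every LI library.

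Nr1i2 (ENSMUSG00000022809.4, minus strand of chr16:38248323-38294824 in GRCm38) encodes the receptor. It measured 6901, 6489 and 5864 normalized counts in the SI crypt libraries and 6318, 5694 and 6185 in the LI crypt libraries. The monolayer libraries gave 3697, 3929 and 3851 for the small intestine and 2209, 2021 and 1895 for the large intestine. The crypt groups overlapped, every monolayer library lay below every crypt library, and every LI monolayer library lay below every SI monolayer library. Between the crypts the log2 fold change, SI over LI, was 0.12 ± 0.07 (SE; adjusted p = 0.153, edgeR). Nr1i2 fell in LI monolayers to 0.337 times its crypt mean, by 1.52 on the log2 scale (SE 0.07; adjusted p = 1.28e-11, edgeR). In SI monolayers it stood at 0.596 times the crypt mean, a log2 fold change of -0.71 ± 0.07 (SE; adjusted p = 1.98e-07, edgeR), which is under the minimum fold change for a call. Between the monolayers the SI mean was 1.87 times the LI mean, again under that minimum (log2 fold change 0.93 ± 0.07, SE; adjusted p = 1.40e-08, edgeR). It was called when LI24h replicate 1 was left out (log2 fold change 1.03). Cell type markers moved with the fall in LI monolayers. There the colonocyte sum was 0.144 times that of LI crypts (6 of 6 genes called lower) and the goblet cell sum 0.0884 times (6 of 6). The stem cell sum was 0.209 times (4 of 6), the tuft cell sum 0.172 times (4 of 4) and the immune sum 0.00515 times (6 of 6). Most of the immune sum in LI crypts was Cd74, which fell from 94486 to 357, and the list's median log2 fold change was -4.08. The Paneth sum was 0.111 times (1 of 6), mostly Ang4, which fell from 40104 to 577. The median log2 fold change of the Paneth list was -0.27. Lyz1, Defa17 and Defa24 had higher means in LI monolayers and Mmp7 and Itln1 lower ones, none called. Enteroendocrine markers went the other way, to 4.60 times (5 of 6 called higher). The enterocyte sum, mostly Vil1, was 0.900 times, with 1 of 12 called in each direction and a median log2 fold change of 0.71. Their part in the result was not tested.

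Cyp3a13 (ENSMUSG00000029727.7, minus strand of chr5:137892932-137921619) is the member that both regions express. Its normalized counts were 26448, 26860 and 20054 in SI crypts, 36308, 35254 and 34444 in SI monolayers, 6836, 7503 and 7098 in LI crypts, and 5866, 6027 and 5772 in LI monolayers. No library of 1 group overlapped another group, and the order ran from SI monolayers through SI crypts and LI crypts to LI monolayers. The SI mean exceeded the LI mean 3.42-fold in crypts (log2 fold change 1.81 ± 0.09, SE; adjusted p = 1.30e-10, edgeR) and 6.00-fold in monolayers (2.61 ± 0.09, SE; adjusted p = 3.56e-12). Neither change with culture reached the minimum fold change. The SI monolayer mean was 1.44 times the crypt mean (log2 fold change 0.57 ± 0.08, SE; adjusted p = 2.79e-05, edgeR), and the LI monolayer mean 0.824 times (-0.23 ± 0.08, SE; adjusted p = 0.0224).

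Cyp3a11 (ENSMUSG00000056035.8, minus strand of chr5:145854426-145879964), usually taken as the mouse counterpart of human CYP3A4, is a standard target of the receptor. In SI crypts it measured 8068, 6852 and 4473 normalized counts and in SI monolayers 9668, 9017 and 8854. The LI libraries held 77.1, 34.8 and 12.5 in crypts and 59.7, 102 and 57.3 in monolayers, from 14 to 89 raw counts each. Every SI library was far above every LI library, the LI groups overlapped, and the SI monolayers lay above the SI crypts, whose libraries were spread widely. The SI mean exceeded the LI mean 156-fold in crypts (log2 fold change 7.34 ± 0.45, SE; adjusted p = 9.45e-07, edgeR) and 126-fold in monolayers (7.02 ± 0.43, SE; adjusted p = 1.02e-06). With culture the difference did not pass the test in either region: the log2 fold change was 0.54 ± 0.30 in the small intestine (SE; adjusted p = 0.152, edgeR) and 0.86 ± 0.58 in the large intestine (SE; adjusted p = 0.219). Without LIcrypt replicate 1, the highest of its group, the latter log2 fold change was 1.65 and the adjusted p 0.0392 in the same edgeR test. As each library was left out, the log2 fold change between the crypts ran from 6.90 to 8.12.

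LIcrypt replicate 1 and LI24h replicate 2, the highest LI libraries of their groups for Cyp3a11 and Cyp3a25, were also the highest in most enterocyte markers: 9 of the 12 peaked in the former among LI crypts and 10 in the latter among LI monolayers. Of the 6 Paneth markers 3 and 2 peaked there, and of the 6 stem cell markers 3 and 4. The 3 in LI crypts were Lyz1, Defa17 and Defa24. In order of replicate they gave 1715, 813 and 501, 317, 64.1 and 38.4, and 1499, 447 and 314 normalized counts. Ang4, Mmp7 and Itln1 peaked in LIcrypt replicate 2. Among LI monolayers all 6 Paneth markers were lowest in replicate 1. Alpi, Apob and Fabp2 peaked in LIcrypt replicate 2. In the LI crypt libraries, in order of their numbers, Lct gave 271, 23.8 and 3.57 normalized counts, Sis 1723, 623 and 193, and the stem cell marker Olfm4 451, 11.0 and 5.36. The LI monolayer libraries gave 46.2, 192 and 160.1 of Lct, 872, 1770 and 1423 of Sis, and 3.85, 273 and 176 of Olfm4. Replicate 1 was thus high in crypts and low in monolayers for Lct, Sis and Olfm4. Other stem cell markers did not share this in crypts: Ascl2 (578, 536 and 620) and Smoc2 (2744, 2497 and 3135) peaked in LIcrypt replicate 3. Axin2 peaked in LIcrypt replicate 2, and Lgr5 gave 304, 300 and 264. The 12 enterocyte markers summed to 79364, 86400 and 85883 in those monolayer libraries, most of it from Vil1, at a mean of 64297, with none at 0. The part of these markers in the LI values of Cyp3a11 and Cyp3a25 was not tested.

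Cyp3a25 (ENSMUSG00000029630.15, minus strand of chr5:145977194-146009618) was high in SI crypts and fell there in culture. It measured 8076, 7306 and 3709 normalized counts in SI crypts but 1246, 1164 and 1072 in SI monolayers. In the large intestine it gave 21.6, 7.32 and 5.36 in crypts and 5.78, 32.1 and 25.7 in monolayers, from 6 to 28 raw counts a library. All SI monolayer libraries lay below all SI crypt libraries and above all LI libraries, where the 2 groups overlapped. Cyp3a25 fell in SI monolayers to 0.182 times its crypt mean, by 2.42 on the log2 scale (SE 0.33; adjusted p = 1.70e-04, edgeR). The SI mean was 557 times the LI mean in crypts (log2 fold change 9.16 ± 0.53, SE; adjusted p = 5.47e-07, edgeR) and 54.8 times in monolayers (5.84 ± 0.50, SE; adjusted p = 9.39e-06). As each library was left out, the log2 fold change between the crypts ran from 8.82 to 9.97. Its LI groups could not be told apart (log2 fold change 0.91 ± 0.93, SE; adjusted p = 0.411, edgeR), a value that ran from 0.44 to 1.72 as each library was left out.

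The remaining members were scarce. Cyp3a44 held 60, 94 and 109 raw counts in SI crypts, 10, 12 and 14 in SI monolayers, and 0 in all 6 LI libraries. It fell with culture by 3.01 on the log2 scale (SE 0.43; adjusted p = 6.03e-05, edgeR), with no overlap between the SI groups. Against a floor of 3 counts per library, its SI mean was at least 33.4-fold higher than the LI mean in crypts and at least 3.55-fold higher in monolayers. Cyp3a59, on the plus strand beside Cyp3a25, held 66, 68 and 37 raw counts in SI crypts and 8, 16 and 8 in SI monolayers, so that the monolayer mean was 0.158 times the crypt mean, a description only, since the crypts brought it past the filter. The LI crypts gave 2 counts of it in all and the LI monolayers 0. In crypts the SI to LI ratio was 98.9, with a 95% counting interval of 27.0 to 823, but both LI counts came from LIcrypt replicate 1. The log2 fold change ran from 5.91 to 8.97 as each library was left out. Without LIcrypt replicate 1 the LI crypts held 0 counts, so the upper end is a fitted value over 0 and not a measured fold. In monolayers SI was at least 3.14-fold higher.

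Cyp3a16 stayed between 3 and 17 raw counts in SI libraries, with 1 count in LI crypts and 1 in LI monolayers, and its SI groups overlapped. The SI to LI ratio was 27.8 in crypts (95% counting interval 4.53 to 1142) and 40.3 in monolayers (6.88 to 1627). The LI counts came from LIcrypt replicate 1 and LI24h replicate 2. As each library was left out the log2 fold change ran from 3.89 to 6.11 in crypts and from 4.46 to 6.89 in monolayers. Both upper ends are fitted over LI groups at 0 counts and are not measured folds. Cyp3a41a had 2 to 6 raw counts in each SI library and 0 in each LI library, too few to read. These intervals and floors cover counting error only. Among counts of 1 to 20, between 73.4 and 77.4% were even in each library, against 50% by chance, and whether read mates were counted singly is not given in the sources used here. If they were, the intervals are too narrow. With all counts halved, Cyp3a16 no longer passed the filter. Outside the chosen genes, Cyp3a57, Cyp3a41b and Cyp3a61-ps1 gave 5, 1 and 2 counts in SI crypts and 0 elsewhere, and Cyp3a63-ps gave 19 in SI crypts, 3 in SI monolayers and 6 in LI crypts.

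Near-identical copies limit what the low counts mean. The longest coding transcripts of Cyp3a41a and Cyp3a41b are 99.7% identical, and 82.9% of the 150-base windows of Cyp3a41a also occur in its copy, so reads from either may be lost or assigned to the other. Cyp3a25 and Cyp3a59 are 96.6% identical but share only 0.702% of 150-base windows, and 6.05% of 100-base windows of Cyp3a25. How much of the few Cyp3a59 counts came from the far more abundant Cyp3a25 was not tested. Cyp3a13 and Nr1i2 share no window of 50 bases with the other transcripts compared, so their counts are free of this doubt.

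**Figure D2:**
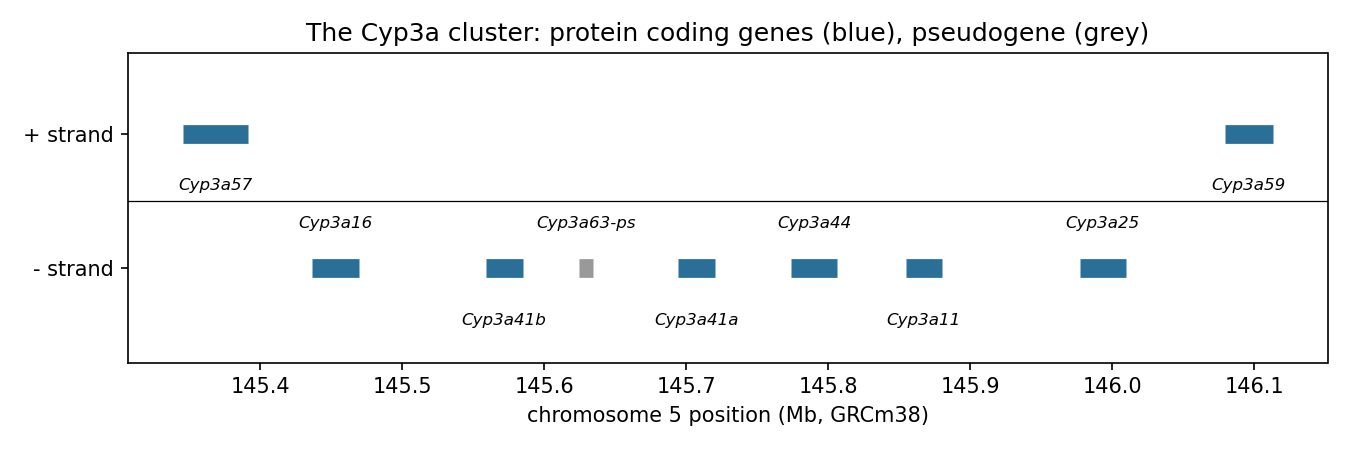
Map of the Cyp3a cluster on chromosome 5 (GRCm38), drawn to scale, with position in Mb on the horizontal axis and the strands above and below the line. Cyp3a57 and Cyp3a59 lie on the plus strand at the ends of the cluster and the other genes on the minus strand. Cyp3a13 and Cyp3a61-ps1 lie outside the stretch drawn.

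Levels of different genes can be compared only per length, here as RPKM, counts per kb of the longest coding transcript, scaled to the total counts of the library. On that scale SI crypts held Cyp3a13 at 119 ± 14.2, Cyp3a25 at 45.4 ± 15.2, Cyp3a11 at 39.4 ± 9.69 and Nr1i2 at 36.1 ± 1.44 (SD, n = 3 each). In SI monolayers the RPKM was 186 ± 5.17 for Cyp3a13, 60.9 ± 2.87 for Cyp3a11, 23.3 ± 0.767 for Nr1i2 and 9.02 ± 0.688 for Cyp3a25. The receptor thus stood above Cyp3a25 in SI monolayers, and the RPKM of Cyp3a25, Cyp3a11 and Nr1i2 in SI crypts did not differ beyond the spread of their libraries. For Cyp3a11 this holds for the coding transcript only: all its exons cover 5093 bases, against 2344 in that transcript, and over them its level is lower. LI crypts held Cyp3a13 and Nr1i2 at nearly the same RPKM, 35.8 ± 1.31 and 35.2 ± 2.27, with Cyp3a11 at 0.263 ± 0.212 and Cyp3a25 at 0.0852 ± 0.0673. In LI monolayers the RPKM of Cyp3a13 was 29.5 ± 0.789 and that of Nr1i2 11.8 ± 1.05.

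The makeup of the family followed from these levels. Per length, Cyp3a13 made up 58.5 ± 4.86% of Cyp3a RNA in SI crypts, 72.6 ± 0.475% in SI monolayers, 98.9 ± 0.754% in LI crypts and 97.9 ± 0.748% in LI monolayers (SD, n = 3 each). Cyp3a25 made up 21.7 ± 3.74% in SI crypts and 3.52 ± 0.152% in SI monolayers, while Cyp3a11 took 19.1 ± 1.53% and 23.8 ± 0.372%. The ratio of Cyp3a25 to Cyp3a11 per length was 1.17, 1.25 and 0.972 in the SI crypt libraries and 0.151, 0.151 and 0.142 in the SI monolayer libraries. This ratio is taken within a library and so does not depend on how libraries are scaled. It does depend on length: over all exons the share of Cyp3a11 was 9.91% in SI crypts and 12.6% in SI monolayers. The summed normalized counts of the family were 37457 ± 7880 in SI crypts and 45716 ± 1441 in SI monolayers, against 7201 ± 312 in LI crypts and 5983 ± 160 in LI monolayers.

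**Figure D3:**
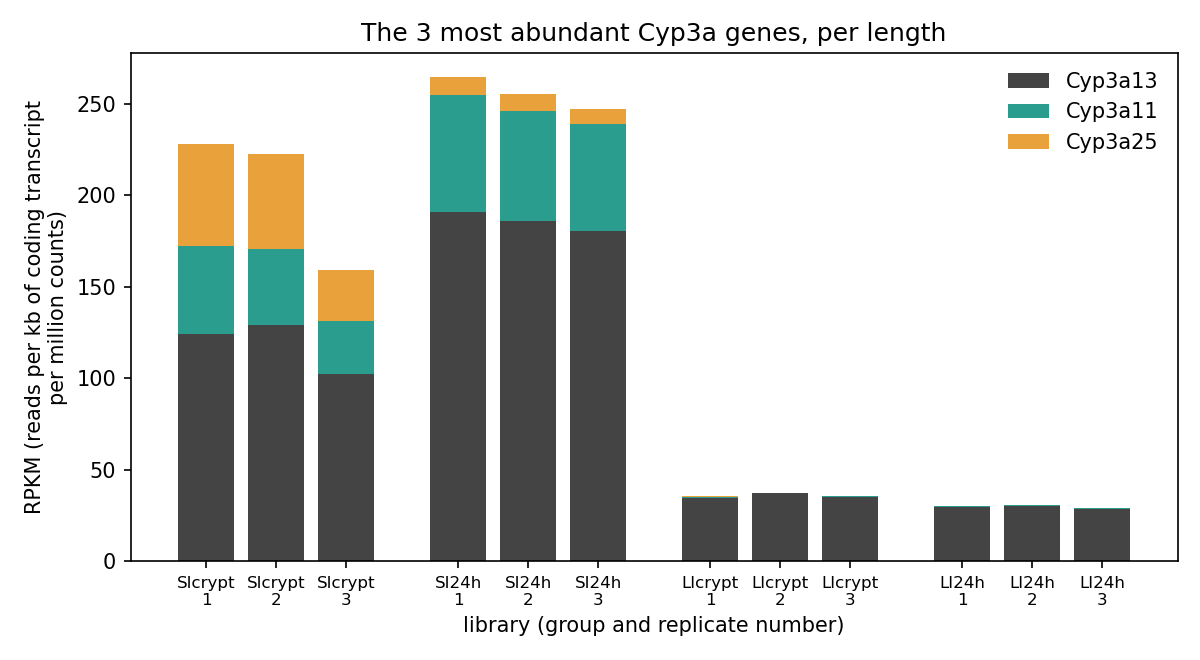
RPKM of Cyp3a13, Cyp3a11 and Cyp3a25 stacked for each of the 12 libraries. In the SI monolayers the Cyp3a25 segment is 8.30 to 9.68, against 28.0 to 56.1 in the SI crypts, and in the LI libraries Cyp3a13 makes up nearly the whole bar.

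SIcrypt replicate 3 was the lowest of its group for Nr1i2, Cyp3a13, Cyp3a11, Cyp3a25 and Cyp3a59, but the highest for Cyp3a44. In the same library the enterocyte markers were lowest, at 1139854 against 1788330 and 1661974, and the 6 Paneth markers highest, at 1536589 against 324062 and 614306. Of the goblet cell markers 6 of 6 peaked there among SI crypts, and of the stem cell markers 5 of 6. Mitochondrial genes took 9.16, 5.92 and 4.56% of counts in the SI crypt libraries in order of their numbers, 2.25 to 2.59% in LI crypts and 0.472 to 0.750% in the monolayers. The enterocyte sum in SI monolayers was 0.305 times that in SI crypts, beside 0.182 for Cyp3a25 and 1.42 for Cyp3a11, with 7 of 12 markers called lower. Other lists moved as well: the stem cell sum was 0.108 times (2 of 6 called lower), tuft 0.103 (4 of 4) and immune, mostly Cd74, 0.169 (5 of 6). The Paneth sum was 0.548 times (1 of 6 called lower), goblet 0.609 (3 of 6) and colonocyte 0.562 (3 of 6, and 1 higher). Most of the stem cell sum in SI crypts was Olfm4, which fell from 84066 to 1209. Of the other stem cell markers, Ascl2, Smoc2 and Axin2 had lower means in SI monolayers and Lgr5 and Sox9 higher ones. The Paneth sum of SI monolayers, 451919, lay within the range of the SI crypt libraries. Enteroendocrine markers stood at 1.78 times (2 of 6 called higher) and proliferation markers at 1.30 times (no call in 6). The part of cell makeup in these differences was not tested. As each library was left out, the log2 fold change of Cyp3a25 between SI monolayers and SI crypts ran from -2.69 to -2.21. Of the 8 hepatocyte markers, Ahsg and Cyp7a1 were at 0 in SI crypts, and the most abundant, Ttr, averaged 406 normalized counts.

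Whether the difference with culture was the same in both regions was tested as an interaction, the log2 fold change with culture in the small intestine minus that in the large intestine. It was readable for the 4 genes with more than 3 counts in every group. Among these 4 genes 1 was called, Cyp3a25, as negative, where 20.0% of all tested genes were called, 11.4% as positive and 8.51% as negative (46.3% by adjusted p alone). Its difference was -3.32 ± 0.99 (SE; adjusted p = 0.0229, edgeR). The call was lost without LI24h replicate 2 (-2.82; adjusted p = 0.1001), LI24h replicate 3 (-3.01; 0.0907), LIcrypt replicate 2 (-3.09; 0.0600) or LIcrypt replicate 3 (-2.98; 0.0640). In each the error was larger, up to an SE of 1.23. Over all libraries left out in turn, the difference ran from -4.14 to -2.82. Nr1i2 gave 0.81 ± 0.10 (SE; adjusted p = 5.41e-06, edgeR) and Cyp3a13 0.80 ± 0.12 (SE; adjusted p = 5.53e-05), both under the minimum for a call. For Cyp3a11 the difference was -0.31 ± 0.65 (SE; adjusted p = 0.736, edgeR), too imprecise to give its sign. Cell type markers differed in the same test. It was called negative for 6 of 12 enterocyte markers and positive for 0 (median -2.62), and negative for 5 of 6 enteroendocrine markers. Calls were positive for 5 of 6 stem cell (1 negative), 5 of 6 goblet cell and 3 of 6 colonocyte markers. The part of these markers in the differences was not tested.

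The genes most like each member were taken by Pearson r over the 12 libraries on log2(normalized count + 1). For the Cyp3a genes the difference between the regions dominates this measure. For Nr1i2 the difference with culture does, since the crypts of both regions had much the same level. The genes most like Cyp3a11 were Abcc2, Nat8f5, Gimd1, Cyp2b10 and Gata5 (r from 0.994 to 0.999). Cyp3a25 went with Hsd17b6, Dab1, Ggt1, Slc26a6 and Enpep (0.993 to 0.996). For Cyp3a13 they were Ldha, Cyp2c66, Sephs2, Cyb5b and Anxa13 (0.991 to 0.995). Nr1i2 went with Gm11914, Plbd1, Gjb1, Acad10 and Coasy (0.994 to 0.996). Ranking by Spearman's rho kept none of the 5 genes for Cyp3a11, Cyp3a25 or Nr1i2 and 1 for Cyp3a13, so the choice is not firm. The lists for the scarce members were led by Cda for Cyp3a44, Rbp2 for Cyp3a59 and Defa22 for Cyp3a16. Of their 5 genes each, Spearman's rho kept 0, 1 and 0 in this order, and a pseudocount of 10 kept 0, 0 and 3.

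Partners of the receptor and other regulators of Cyp3a promoters made a list of 18 genes, 17 of them tested. In SI monolayers 3 fell and none rose, with a median log2 fold change of -0.47 beside -0.05 over all tested genes. That count, 3 of 17, is near the 16.4% of all genes called lower. These were Ppargc1a, a coactivator (-3.02), Vdr, the vitamin D receptor (-1.31), and Ncoa1, a further coactivator (-1.03). In LI monolayers 7 fell and 3 rose (beside 23.5 and 14.5% of all genes; median -0.50 beside -0.05), led by Vdr (-3.17), Nr1i3, the constitutive androstane receptor (-2.49), Nr1h4, the bile acid receptor (-1.75), and Cebpa (-1.52).

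Between the regions, 6 of these 17 genes were higher and 1 lower in SI crypts (beside 11.6 and 11.1% of all genes; median 0.62 beside 0.06), and 5 were higher in SI monolayers (beside 12.4%; median 0.24 beside 0.02). Both counts of higher genes include Nr0b2, which passed the filter through the small intestine only and had to differ. Hnf4g, a nuclear factor of enterocytes, averaged 19734 ± 1495 normalized counts in SI crypts and 1938 ± 175 in LI crypts, then 11716 ± 212 and 743 ± 52.5 in monolayers (SD, n = 3 each). Its log2 fold change, SI over LI, was 3.39 in crypts and 4.01 in monolayers. Nr1i3 was higher in the small intestine by 3.57 and 5.09 on the same scale, at 540 ± 132 normalized counts in SI crypts and 8.01 ± 5.25 in LI monolayers. Nr0b2, a corepressor that binds no DNA, was at 0 in all LI libraries and at least 9.63-fold higher in SI crypts and at least 6.56-fold higher in SI monolayers against the same floor. Hnf4a stayed under the minimum fold change in all 4 comparisons and averaged from 45076 to 77777 in the groups. Rxra, the partner of the receptor in binding DNA, averaged 10559 ± 816 in SI crypts, 5922 ± 88.9 in SI monolayers, 6626 ± 587 in LI crypts and 5130 ± 276 in LI monolayers, with each log2 fold change under the minimum. The interaction was called for 4 genes of the list as positive, led by Nr1h4 (2.11), and for 2 as negative, Ppargc1a (-1.73) and Nr3c1 (-1.53), beside 11.4 and 8.51% of all genes.

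The 14 genes of electron transfer and heme supply were all tested. P450 enzymes take electrons from the reductase Por and from cytochrome b5. Por rose in SI monolayers by a log2 fold change of 1.40 ± 0.10 (SE; adjusted p = 2.42e-08, edgeR), with normalized counts of 14298, 12177 and 10210 in SI crypts and 31416, 31469 and 31557 in SI monolayers, which do not overlap. In LI monolayers it averaged 16043 ± 408 against 9777 ± 1010 in LI crypts (log2 fold change 0.76, under the minimum). Hmox1, the heme-degrading oxygenase, was the other gene of the list that rose in SI monolayers, by 3.09, and it rose in LI monolayers by 3.99. None fell in SI monolayers, and 2 rose and 3 fell in LI monolayers, with medians of -0.07 and -0.51 beside -0.05 in both. The 5 of 14 called in LI monolayers are near the 38.0% of all genes, and the 2 of 14 in SI monolayers stand beside 26.1%. Between the regions 3 were higher in SI crypts (beside 11.6% of all genes) and 4 in SI monolayers (beside 12.4%), among them Cyb5a (1.79 and 2.22), and none was lower (medians 0.14 beside 0.06 and 0.56 beside 0.02). Alas1, which starts heme synthesis, averaged 12678 ± 933, 13440 ± 365, 14717 ± 1904 and 9631 ± 239 in SI crypts, SI monolayers, LI crypts and LI monolayers, with each log2 fold change under the minimum. The interaction was called for 1 gene of the list as positive and 1 as negative (beside 11.4 and 8.51% of all genes; median 0.48 beside -2.08e-04).

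Other known targets of the receptor made a list of 19 genes, 18 of them tested, and Sult2a1 had no count in any library. In SI monolayers 11 rose and 4 fell, beside 9.71 and 16.4% of all genes, with a median log2 fold change of 1.36 beside -0.05. The glutathione transferases Gsta1 (4.60), Gsta2 (4.50) and Gstm1 (3.33) and the P450 Cyp2c29 (4.11) led those that rose. Cd36 (-5.77), Akr1b7 (-3.75), Papss2 (-1.38) and Ugt1a1 (-1.33) fell. In LI monolayers 3 rose and 8 fell, beside 14.5 and 23.5% of all genes, with a median of 0.50 beside -0.05, and the list included genes that went opposite ways in the 2 regions. Gstm1 averaged 4456 ± 1293 normalized counts in SI crypts and 43563 ± 1295 in SI monolayers, but 9996 ± 1278 in LI crypts and 916 ± 126 in LI monolayers (SD, n = 3 each). The interaction was called for 8 genes of the list as positive and 1 as negative, beside 11.4 and 8.51% of all genes, with Gstm1 at 6.73, Gstm3 at 4.95, Ces2a at 4.89 and Aldh1a1 at 3.86, and Cd36 at -6.46. Between the crypts 9 of the 18 were higher in the small intestine and 3 lower (beside 11.6 and 11.1% of all genes; median 1.41 beside 0.06), with Cyp2b10 (7.61) and Cyp2c55 (-2.67) at the ends. Between the monolayers 11 were higher in the small intestine and none lower (beside 12.4 and 8.88%; median 3.74 beside 0.02).

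As a list, these targets thus did not move as one with either Nr1i2 or Cyp3a11. Of the list, Abcc2 and Cyp2b10 were among the 5 genes most like Cyp3a11. Abcc2 averaged 13437 ± 2821 normalized counts in SI crypts and 15652 ± 305 in SI monolayers. In the large intestine it averaged 163 ± 90.2 in crypts and 279 ± 37.0 in monolayers (SD, n = 3 each). Cyp2b10, a P450 that answers to both the pregnane X receptor and Nr1i3, had normalized counts of 14958, 12462 and 4467 in SI crypts and 10116, 9328 and 8902 in SI monolayers, overlapping groups. In the large intestine it averaged 56.2 ± 41.3 in crypts and 132 ± 31.8 in monolayers. Abcb1a, which encodes the drug efflux pump P-glycoprotein, rose in SI monolayers by 1.14 and averaged 24694 ± 856 there and 32816 ± 365 in LI monolayers, so that, unlike Cyp3a11, it was not higher in the small intestine.

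The Cyp3a promoters are shown beside these levels. Per coding transcript, Cyp3a11 and Cyp3a25 did not differ in SI crypts beyond the spread of their libraries. Of these genes only Cyp3a25 was called between SI monolayers and SI crypts, as lower. Any part of the promoters in this was not tested. RefSeq gave a promoter for 9 Cyp3a genes and for Nr1i2, from 250 bases before to 50 after the start, in GRCm38.p6. Cyp3a25 had 2 promoter entries, and what follows for it describes only the first listed. Each was searched on both strands for AGGTCA and AGTTCA, hexamers that nuclear receptors bind in pairs, and for CAAAGTCCA, a form of the HNF4 motif. The letters AGGTCA occurred in 5 of the 9 Cyp3a promoters and in 16.3% of 32851 promoters of the same length, AGTTCA in 3 of 9 and 14.0%, and CAAAGTCCA in 4 of 9 and 0.475%. The 9 are copies of each other to different degrees and do not count as independent. The 4 with CAAAGTCCA were Cyp3a11, Cyp3a16, Cyp3a41a and Cyp3a41b. Cyp3a25, Cyp3a57 and Cyp3a59 each held AGGTCA on both strands, and Cyp3a13 and Nr1i2 held none of the 3 motifs.

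The 250 bases before the start are printed 5′ to 3′ on the strand of the gene for Cyp3a11 (chr5:145879855-145880104, minus), Cyp3a44 (chr5:145805875-145806124, minus), Cyp3a25 (chr5:146009619-146009868, minus), Cyp3a59 (chr5:146079008-146079257, plus) and Cyp3a13 (chr5:137921620-137921869, minus), with matches to the motifs in capitals.
Cyp3a11 promoter: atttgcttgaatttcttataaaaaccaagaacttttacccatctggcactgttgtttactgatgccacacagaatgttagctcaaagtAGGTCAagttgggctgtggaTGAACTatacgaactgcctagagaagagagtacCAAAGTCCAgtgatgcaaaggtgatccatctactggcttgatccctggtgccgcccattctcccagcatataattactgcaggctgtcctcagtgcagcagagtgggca
Cyp3a44 promoter: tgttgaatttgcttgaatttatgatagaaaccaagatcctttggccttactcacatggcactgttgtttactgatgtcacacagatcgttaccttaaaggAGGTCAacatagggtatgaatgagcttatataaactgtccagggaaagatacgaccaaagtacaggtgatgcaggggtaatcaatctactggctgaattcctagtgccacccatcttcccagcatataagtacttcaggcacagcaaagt
Cyp3a25 promoter: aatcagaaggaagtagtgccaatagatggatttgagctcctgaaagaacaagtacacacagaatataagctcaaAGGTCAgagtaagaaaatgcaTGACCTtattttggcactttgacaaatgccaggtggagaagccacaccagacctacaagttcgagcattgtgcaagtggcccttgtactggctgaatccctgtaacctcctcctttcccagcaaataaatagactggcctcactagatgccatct
Cyp3a59 promoter: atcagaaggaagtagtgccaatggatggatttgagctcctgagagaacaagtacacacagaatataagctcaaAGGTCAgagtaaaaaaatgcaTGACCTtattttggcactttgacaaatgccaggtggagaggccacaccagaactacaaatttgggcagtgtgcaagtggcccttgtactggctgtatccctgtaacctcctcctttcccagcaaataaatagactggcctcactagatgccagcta
Cyp3a13 promoter: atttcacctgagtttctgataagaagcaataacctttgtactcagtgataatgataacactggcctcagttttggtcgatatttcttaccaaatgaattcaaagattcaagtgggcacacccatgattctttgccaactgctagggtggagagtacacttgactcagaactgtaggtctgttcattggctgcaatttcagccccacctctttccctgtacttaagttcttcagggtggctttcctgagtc
In Cyp3a11 the matches begin 162, 142 and 109 bases before the start, and in Cyp3a25 the AGGTCA matches begin 176 and 155 bases before it. Over the whole window of 300 bases, the promoters of Cyp3a25 and Cyp3a59 are 95.7% identical, those of Cyp3a16 and Cyp3a44 93.4%, those of Cyp3a11 and Cyp3a44 71.2%, and those of Cyp3a11 and Cyp3a25 52.9%. A match is a stretch of letters and says nothing of whether a receptor binds there.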

How the data were processed

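Gene counts and normalized values were used as deposited. Per the study's methods, the authors aligned paired reads to GRCm38 with STAR 2.7.9a, made one count per gene with featureCounts 2.0.2 on the GENCODE annotation, and scaled the counts with DESeq2 (given as 3.13); the deposited normalized signal is the count divided by a size factor per library. Options for strand, mates and multiply mapped reads are not given in the sources used here. Libraries were grouped by the labels. Counts were fitted with edgeR 4.0.16 in R 4.3.3 (filterByExpr, TMM, robust quasi-likelihood, 1 model of 4 group means, no block), with Benjamini-Hochberg adjustment over all 19581 tested genes. DESeq2 1.42.0 was an alternative. Exon and transcript lengths came from an earlier GENCODE release of the same build. Promoters were aligned with Biopython 1.88. Genes named were the 8 members, in each list those called with the largest log2 fold change, and the 5 genes most like each member with a mean of at least 100. The members and lists were chosen with earlier results of these data known.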

Additional observations from a re-analysis of the deposited data

Results flagged for a closer look

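For 3 of the genes the change with culture differed between the small and the large intestine by the test of that difference itself (edgeR's interaction term, adjusted p under the threshold) out of 4 with a readable count in every group, where 46.3% of all tested genes pass by adjusted p alone. With the minimum fold change only Cyp3a25 was called, and its call was lost without any 1 of 4 LI libraries (adjusted p from 0.0600 to 0.1001). The differences in log2 fold change, small minus large intestine, were 0.80 for Cyp3a13, -3.32 for Cyp3a25 and 0.81 for Nr1i2. For Cyp3a13 they join a log2 fold change of 0.57 in SI and -0.23 in LI, for Nr1i2 -0.71 and -1.52, and for Cyp3a25 -2.42 and 0.91, the last from LI libraries of 6 to 28 counts.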

How the results depend on the processing

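Of the log2 fold changes of the 7 tested genes under the alternatives, 572 kept their direction and side of the threshold, 4 lost the call, 8 gained one and 2 changed sign. Counts of members here are over all 7 tested, those the filter favoured included: 3, 1, 6, 6 and 1 for SI culture, LI culture, crypts, monolayers and the interaction. The changes of sign were both the uncalled interaction of Cyp3a11, 0.09 without LI24h replicate 2 and 0.12 without LIcrypt replicate 3 (all libraries -0.31), which ran from -1.10 to 0.12 as each library was left out. Requiring at least 10 counts in every library leaves out Cyp3a25 and the scarce members by construction: 0 members were then called between SI monolayers and SI crypts and in the interaction, and 2 in each comparison of the regions, with 3140, 4797, 2606 and 2442 genes called in all for SI culture, LI culture, crypts and monolayers. With no minimum fold change, 5 members were called for SI culture, 2 for LI culture and 3 for the interaction, and 11674, 13445, 10558, 10145 and 9069 genes in all for the 5 comparisons in the order above. Leaving out each library in turn gave 1 to 2 members for LI culture and 0 to 1 for the interaction, where the 4 losses are those of Cyp3a25. The cause was not tested. DESeq2's Wald test called 3, 1, 6, 6 and 1 members. Without a filter on low counts Cyp3a41a was also called between the regions (adjusted p = 0.0385 in crypts and 0.0460 in monolayers, edgeR). Libraries of the same number did not deviate together: 0 of 18 pairs had a correlation over 0.1 (from -0.05 to 0.06), so by this check the numbers do not pair samples. Mice shared between regions under other numbers were not tested. With the replicate number as a block, 3, 1, 6, 6 and 1 members were called, and 5017, 7367, 4383, 4083 and 3807 genes in all. Of 28 shares by count, 14 moved per length of all exons and 9 per coding length, an alternative chosen after seeing the data. Depth limits the LI values of Cyp3a25 and of the scarce members.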
